A study of Mus musculus with 4 samples.

Results

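The genes of interleukin 17 and interleukin 22 were followed across CD4 T cells sorted from the lamina propria, the connective tissue under the epithelium, of the small intestine. The set was named by gene: Il17a, Il17f, Il22 and Iltifb, 4 of the 31053 genes counted, of which all 4 were measured and all 4 passed the filter on low counts in the fits across donors and cell classes given here. The cells came from irradiated Rag1-/- mice, which lack T and B lymphocytes. Each of the 4 recipients was injected with 10000000 bone marrow cells, 50% from wild type (WT) CD45.1+ mice and 50% from Bcl3-/- CD45.2 mice, and was analysed after 16 weeks. Live CD45+CD3+CD4+ cells were sorted, stained with barcoded antibodies against both forms of CD45, and counted as unique molecular identifiers (UMIs) at the 3' ends of transcripts in droplets, so that the donor of a cell was read in the same droplet as its RNA. The 4 recipients form 1 group, and the contrast lies between the cells of both donors inside each animal.

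IL-17A and IL-17F are secreted as dimers, alone or with each other, and act on epithelial cells and fibroblasts through the receptor chains IL-17RA and IL-17RC, where they induce antimicrobial peptides and chemokines that draw neutrophils. IL-22 belongs to the IL-10 family and acts through IL-22RA1 and IL-10RB on epithelium, which answers with repair and antimicrobial genes. In the gut both are products of type 17 T helper cells, which respond to IL-23 and IL-1, and of innate lymphoid cells and gamma-delta T cells.

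Barcodes with at least 500 genes and at most 10% mitochondrial counts were kept. This left 9301, 9244, 3626 and 1415 cells in recipients 1 to 4, with median depths of 5932 UMIs in recipient 1, 5836 in recipient 4 and 8679 in recipient 3. In recipient 3, 85.6% of cells held the immunoglobulin transcript Igkc, against 1.48% to 14.4% elsewhere, and 96.9% held Il17a. That library stands apart, so the results below rest on recipients 1, 2 and 4 (19960 cells), and values with recipient 3 are given where they change a call. Libraries shared at most 33 cell barcodes. A cell was assigned to a donor with at least 10 tag UMIs and a 4-fold excess of one tag, which gave 1689 CD45.1 and 17885 CD45.2 cells and left 386 unassigned. Cells of the CD4 T cell lineage made up the sort: in recipients 1, 2 and 4 Cd3e was detected in 91.2% to 95.6% and Trac in 91.4% to 96.4% of cells.

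Bcl3, the targeted gene, stood at 31.4, 21.6 and 13.8 CPM (a gene's UMIs summed over a group of cells and scaled by all UMIs of that group) in CD45.1 cells of recipients 1, 2 and 4 and at 76.2, 76.5 and 76.0 in CD45.2 cells. The level was thus higher in the cells labelled Bcl3-/- in each of these recipients. The deleted part of the gene is not described here, and a 3' tag outside the deleted part checks nothing, so directions below are stated between the CD45.1 cells (labelled wild type) and the CD45.2 cells (labelled Bcl3-/-).

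The 4 genes lie as 2 pairs in the genome (GENCODE M21, GRCm38, the build mm10). Il17a (ENSMUSG00000025929) spans chr1:20730905-20734496 on the plus strand in 3 exons. Il17f (ENSMUSG00000041872) spans chr1:20777146-20790617 on the minus strand, 42649 bases away. Both are on the same chromosome as Ptprc, the CD45 gene, but 117 Mb from it. Il22 (ENSMUSG00000074695, 5 exons) spans chr10:118204942-118210047 on the plus strand. Iltifb (ENSMUSG00000090461, 5 exons), a second copy of the IL-22 gene, spans chr10:118289629-118295038 on the minus strand, 79581 bases from Il22. The Il22 and Iltifb transcripts, 1110 and 1111 bases long, were identical at 1081 aligned bases and differed at 29, with 1 gap (97.4% identical), whereas Il17a and Il17f matched at 58.3% of aligned bases. Reads that match both IL-22 genes may have been split or dropped by the authors' counting, whose rule for such reads was not stated, so the division of UMIs between Il22 and Iltifb is uncertain. In the last 300 bases of Il22, 29 of 251 windows of 50 bases, 4 of 226 of 75 bases and 0 of 211 of 90 bases also occurred in Iltifb.

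Since both pairs were measured together throughout, the sequence before each start is shown to let them be compared. The stretches come from RefSeq (GRCm38.p6), are written 5' to 3' on the gene's own strand, and matched all 4 members by symbol. They cover chr1:20730655-20730904 for Il17a, chr1:20784271-20784494 for Il17f, chr10:118204714-118204813 for Il22 and chr10:118295039-118295288 for Iltifb. Capitals mark matches, on either strand, to the TATA box TATAAA, the nuclear receptor core AGGTCA or the AP-1-like TGANTCA.
Il17a: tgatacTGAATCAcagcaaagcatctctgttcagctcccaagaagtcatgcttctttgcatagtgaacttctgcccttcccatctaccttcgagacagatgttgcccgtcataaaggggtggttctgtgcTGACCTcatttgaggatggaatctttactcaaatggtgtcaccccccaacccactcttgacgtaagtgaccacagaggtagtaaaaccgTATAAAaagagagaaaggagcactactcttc
Il17f: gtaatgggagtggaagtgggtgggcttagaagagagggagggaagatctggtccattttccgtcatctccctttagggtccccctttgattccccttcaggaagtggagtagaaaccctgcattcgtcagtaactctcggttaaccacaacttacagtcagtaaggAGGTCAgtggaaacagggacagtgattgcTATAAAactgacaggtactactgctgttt
Il22: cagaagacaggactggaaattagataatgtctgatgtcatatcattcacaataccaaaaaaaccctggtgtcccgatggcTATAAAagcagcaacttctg
Iltifb: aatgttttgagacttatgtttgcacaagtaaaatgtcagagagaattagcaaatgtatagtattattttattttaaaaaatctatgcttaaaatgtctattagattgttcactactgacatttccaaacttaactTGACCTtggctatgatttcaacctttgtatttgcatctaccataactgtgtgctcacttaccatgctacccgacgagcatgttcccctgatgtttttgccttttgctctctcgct

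The TATA match began 31 bases before the start in Il17a, 29 in Il17f and 170 in Il22 (RefSeq starts), and there was none in the Iltifb window. The nuclear receptor core began 120 bases before the start in Il17a, 58 in Il17f and 115 in Iltifb, on the opposite strand in Il17a and Iltifb. Il17a also held the AP-1-like letters, and no match overlapped another. Among 32851 promoter windows of 250 bases, 12.4% held the TATA box, 14.0% the nuclear receptor core and 6.75% the AP-1-like letters. The full Il22 and Iltifb windows, which run on past the start, held a stretch of 102 aligned bases with 98 identical, beginning 57 bases before the Iltifb start. The Il22 letters printed here are only the first 100 of the 250 bases before its start, and they shared no run longer than 7 bases with the printed Iltifb letters. These matches describe letters only.

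Il17a was the most widely detected of the 4. At least 1 UMI was found in 47.2% of cells of recipient 1 (95% exact binomial interval 46.2% to 48.2%), 45.19% of recipient 2 (44.2% to 46.2%) and 16.4% of recipient 4 (14.5% to 18.4%), a mean of 36.3% ± 17.2 (SD, n = 3). Il22 followed at 20.5%, 21.4% and 6.29% (16.1% ± 8.49), Il17f at 11.8%, 11.3% and 5.94% (9.65% ± 3.23) and Iltifb at 7.01%, 6.34% and 3.67% (5.67% ± 1.76). Recipients 1 and 2 lay close together and recipient 4 was below both for every member. The order of the genes was the same in the 3 recipients, with the gap between Il22 and Il17f small in recipient 4, where their intervals (5.08% to 7.68% and 4.76% to 7.30%) overlap. These intervals cover counting error only.

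The counts per cell were spread widely. A positive cell (at least 1 UMI) held on average 35.0, 27.3 and 15.5 UMIs of Il17a in recipients 1, 2 and 4, 15.5, 18.1 and 11.1 of Il22, and 9.53, 10.5 and 5.68 of Il17f. Medians were far lower, at 14, 7 and 5 UMIs for Il17a, 3, 2 and 2 for Il22 and 4, 4 and 2 for Il17f. The highest cells held 383 Il17a, 431 Il22 and 175 Il17f UMIs. Cells with at least 10 UMIs, 25.5%, 21.2% and 6.01% of all cells for Il17a, carried 97.1%, 95.4% and 87.3% of its UMIs. For Il22 such cells were 5.77%, 6.72% and 1.55% of cells and carried 88.8%, 91.4% and 86.8% of the UMIs. Iltifb differed from the others: its mean was 1.90, 1.74 and 1.5 UMIs per positive cell, its maximum 21, and 59.4%, 63.7% and 75% of its positive cells held a single UMI. Because each molecule is counted once at its 3' end, these levels need no scaling by length. The levels of Il22 and Iltifb still depend on how reads matching both genes were counted, which was not stated.

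**Figure D1:**
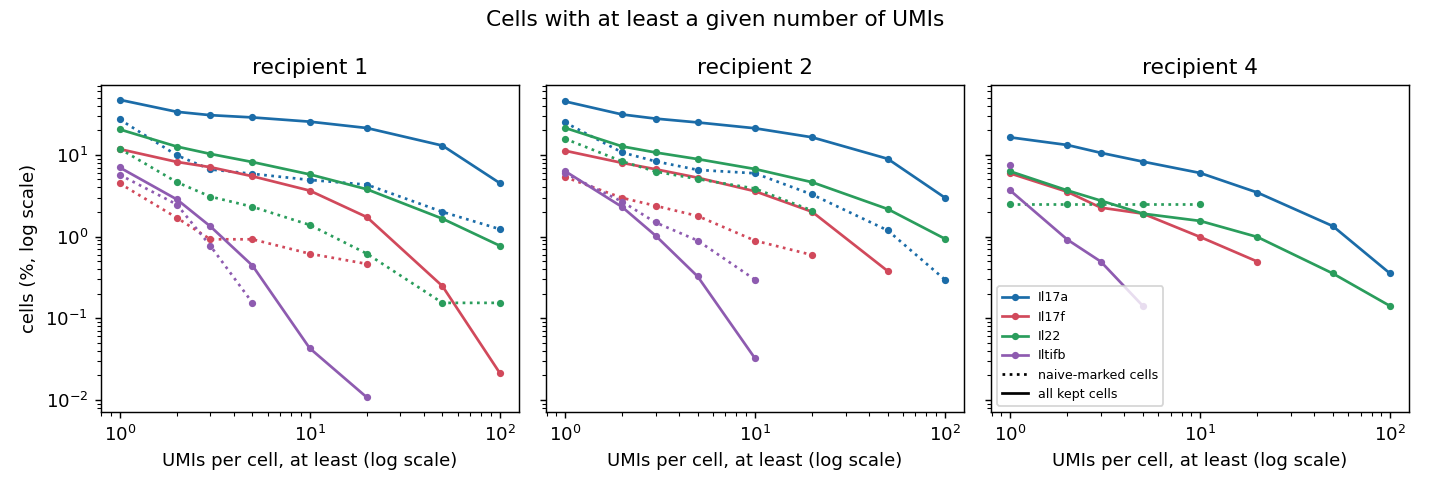
Share of cells (y axis, percent, log scale) with at least a given number of UMIs (x axis, log scale) of each gene in recipients 1, 2 and 4; solid lines are all kept cells and dotted lines naive-marked cells. Il17a, Il22 and Il17f fall slowly, from 47.2% at 1 UMI to 25.5% at 10 for Il17a in recipient 1, while Iltifb falls steeply.

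Low counts have to be read against the free RNA of each library. Naive-marked cells, defined by at least 2 of 3 naive T cell markers, Ccr7 and Lef1 among them, and no Foxp3, should lack these cytokines, and 27.2%, 25.0% and 0% of them in recipients 1, 2 and 4 had an Il17a UMI, at median depths of 7076.5, 7102 and 6978.5 UMIs. Their median was 1 Il17a UMI per positive cell in recipients 1 and 2. With 0 of 40 cells positive in recipient 4, a share of up to 7.50% is still allowed. Il22 was found in 11.9%, 15.8% and 2.50% of naive-marked cells, Il17f in 4.48%, 5.36% and 0%, and Iltifb in 5.71%, 5.95% and 7.50%. At 10 UMIs or more the Il17a share in these cells was 4.94%, 5.95% and 0%. Barcodes that missed the minimum of 500 genes, at median depths of 732.5, 748 and 747 UMIs, held Il17a in 29.4%, 35.3% and 0% and Iltifb in 0% of 126, 238 and 36 barcodes. A share at 1 UMI near those levels is not read below as a difference in expression, and shares at 10 UMIs or more are given for the main values. In recipients 1 and 2, 9 and 21 cells had at least 50 Igkc UMIs or at least 3 other B or plasma cell markers. Of these few cells, 22.2% and 19.0% held 10 Il17a UMIs or more, and 0% held 10 of Il17f or Il22. Of 33 and 15 cells with at least 3 myeloid markers, 3.03% and 13.3% held 10 Il17a UMIs or more. Whether these barcodes held mixed cells was not tested. Free RNA and expression were not told apart, since some cells of each of these reference groups held 10 UMIs or more.

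Cells were next divided by marker transcripts into a Foxp3 class (at least 1 Foxp3 UMI, the factor of regulatory T cells), a Ccl5 class (at least 3 UMIs of this chemokine of cytotoxic and type 1 cells), a Cxcr5 class (at least 1 UMI of this receptor of follicular helper cells) and the remaining other cells. The classes were taken in that order and held 1636, 1240, 527 and 5898 cells in recipient 1, 1833, 1346, 317 and 5748 in recipient 2, and 317, 89, 81 and 928 in recipient 4. Their median depths ran from 5279 to 7280 UMIs.

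Il17a was concentrated in the other cells. There it was found in 54.6%, 52.0% and 22.2% of cells, against 38.2%, 34.2% and 4.10% in the Foxp3 class, 30.7%, 34.5% and 13.5% in the Ccl5 class and 31.9%, 30.0% and 1.23% in the Cxcr5 class. The Ccl5 and Cxcr5 shares of recipients 1 and 2 lie close to the naive-marked level. At 10 UMIs or more the contrast was wider, with 34.6%, 28.7% and 8.41% of other cells against 10.3%, 6.66% and 0% of the Foxp3 class, 10.0%, 12.1% and 7.87% of the Ccl5 class and 8.16%, 6.94% and 0% of the Cxcr5 class. The summed level fell from 3709, 2819 and 605.4 CPM in other cells to 994.8, 520.5 and 19.9 in the Foxp3 class. Other cells were highest in each recipient, and the Ccl5 class of recipient 4, at 553.2, came nearest to them.

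Il17f followed Il17a at lower levels. The other cells held it in 15.6%, 15% and 8.51%, the Foxp3 class in 4.83%, 3.76% and 0.315%, the Ccl5 class in 4.76%, 6.02% and 3.37% and the Cxcr5 class in 6.64%, 8.83% and 1.23%. The Foxp3 and Ccl5 shares of recipients 1 and 2 lie close to the naive-marked level (4.48% and 5.36%). At 10 UMIs or more other cells gave 5.04%, 4.92% and 1.19% and the Foxp3 class 1.16%, 0.491% and 0%. The Ccl5 class gave 1.29%, 2.23% and 3.37%, above other cells in recipient 4, and the Cxcr5 class 1.52%, 3.15% and 0%. In CPM it stood at 262.0, 272.4 and 75.4 in other cells and at 46.7, 28.2 and 0.570 in the Foxp3 class. The Ccl5 class of recipient 4 was the exception, at 127.1 CPM from only 3 positive cells.

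Il22 was highest in other cells by CPM and at 10 UMIs or more, but at 1 UMI its share in recipient 4 was higher in the Cxcr5 class. It was detected in 25.2%, 26.3% and 7.65% of other cells and in 21.1%, 19.2% and 11.1% of Cxcr5 cells, against 9.84%, 9.49% and 1.58% of Foxp3 and 11.9%, 17.5% and 4.49% of Ccl5 cells. In recipients 1 and 2 the naive-marked level was 11.9% and 15.8%, above the Foxp3 and near the Ccl5 shares. At 10 UMIs or more the Cxcr5 class gave 4.74%, 5.68% and 0% and other cells 7.43%, 8.89% and 1.94%. Iltifb had another order. Its share was 11.6%, 8.20% and 7.41% in Cxcr5 cells and 8.83%, 8.40% and 4.85% in other cells, with 2.44%, 1.80% and 0% in Foxp3 and 2.42%, 3.27% and 1.12% in Ccl5 cells. In CPM, Iltifb stood at 31.3, 31.0 and 26.4 in the Cxcr5 class and at 27.1, 24.3 and 11.1 in other cells, higher in the Cxcr5 class in all 3 recipients. The naive-marked Iltifb shares of 5.71%, 5.95% and 7.50% were above the Foxp3 and Ccl5 classes.

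**Figure D2:**
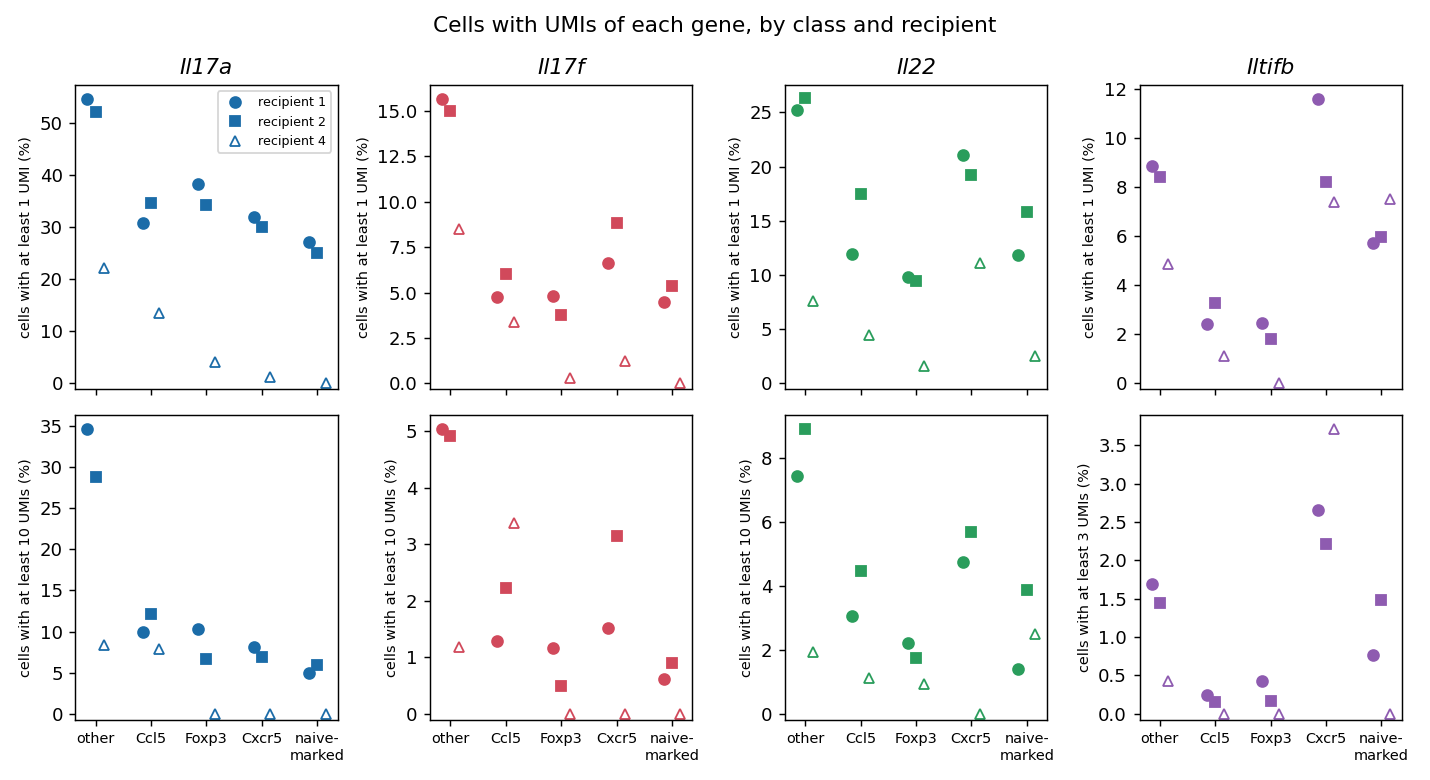
Share of cells with a UMI (upper row) and with at least 10 UMIs, or 3 for Iltifb (lower row), of each gene in the 4 classes and in naive-marked cells, which overlap the classes; each point is 1 recipient. Il17a and Il17f peak in other cells of recipients 1 and 2, and Iltifb reaches its highest shares at 3 UMIs or more in the Cxcr5 class (2.66%, 2.21% and 3.70%).

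The classes were tested on counts summed per recipient and class with edgeR's quasi-likelihood test on all genes, with the recipient as a block. The class rule used only Foxp3, Ccl5 and Cxcr5, and n = 3 recipients throughout. In the Foxp3 class all 4 members fell, where 10.6% of the 11433 genes tested fell. The log2 fold changes were -2.50 for Il17a (SE 0.455, edgeR adjusted p = 0.000671), -2.87 for Il17f (0.410, 6.94e-05), -2.37 for Il22 (0.152, 1.16e-08) and -2.09 for Iltifb (0.205, 1.27e-06). With recipient 3 added, the Il17a call was lost (-1.94, edgeR adjusted p = 0.0698) and the others became -2.18 (Il17f), -1.74 (Il22) and -1.49 (Iltifb), still past the threshold.

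In the Ccl5 class 3 of 4 members fell, beside 7.34% of all genes. Il22 fell by 1.64 on the log2 scale (SE 0.153, edgeR adjusted p = 2.04e-06), Iltifb by 2.11 (0.224, 7.05e-06) and Il17f by 1.69 (0.406, 0.00961). Il17a had a log2 difference of -1.27 (0.466) that did not pass (edgeR adjusted p = 0.0923). Recipient 4 weighed on these: without it the Il17a difference was -1.72 (edgeR adjusted p = 2.23e-05). The Il17f call was lost without recipient 1 (-1.11, edgeR adjusted p = 0.245), without recipient 2 (-1.63, 0.116) and with DESeq2 (-0.36, adjusted p = 0.946). Adding recipient 3 also ended the calls of Il17f, Il22 and Iltifb (-1.09, -1.34 and -1.52).

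In the Cxcr5 class 3 of 4 members fell, beside 14.6% of all genes. Il17a fell by 2.65 on the log2 scale (SE 0.478, edgeR adjusted p = 0.000500), Il17f by 1.85 (0.440, 0.00463) and Il22 by 1.18 (0.150, 1.66e-05). Iltifb had a log2 difference of 0.34 (0.199, edgeR adjusted p = 0.236), which did not pass and turned to -0.16 when classes were called on cells thinned to 3000 UMIs. The Il17f call did not hold without recipient 1 (-1.17, edgeR adjusted p = 0.0940), with DESeq2 (-2.32, adjusted p = 0.141) or with recipient 3 (-1.80, edgeR adjusted p = 0.0656). Without recipient 2, Il17f differed by -2.82. The 330 Il17f UMIs of the Cxcr5 class of recipient 2 came from 28 cells, the highest with 75. Naive markers moved with this class: their summed level was 1139, 1016 and 931.6 CPM in Cxcr5 cells against 703.5, 544.2 and 753.6 in other cells, and 272.8 to 340.2 in the Foxp3 and Ccl5 classes. Their part in the result was not tested.

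The contrast between donors was made inside each recipient. Among all cells, CD45.2 cells held more of every member. Il17a stood at 842.2, 703.5 and 68.9 CPM in CD45.1 cells and at 2768, 2110 and 459.2 in CD45.2 cells of recipients 1, 2 and 4. The 2 ranges overlap across recipients, since recipient 4 was low in both, but each CD45.2 value was above its CD45.1 partner. Il17f rose from 42.1, 73.5 and 3.06 to 191.7, 201.5 and 62.6, although the lowest of these rests on 2 UMIs in 1 of 102 cells. Il22 rose from 38.0, 238.7 and 42.9 to 551.3, 662.7 and 126.0, and the 42.9 comes from a single cell with 28 UMIs. Iltifb rose from 3.90, 6.22 and 1.53 to 22.6, 19.2 and 10.1, with 19, 34 and 1 UMIs on the CD45.1 side.

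All 4 members passed the test, where 6.7% of the 10694 genes tested were higher in CD45.2 cells and 6.16% lower. The log2 fold changes, CD45.2 minus CD45.1, were 1.70 for Il17a (SE 0.140, edgeR adjusted p = 6.82e-05), 1.74 for Il17f (0.174, 0.000177), 2.27 for Il22 (0.376, 0.00276) and 1.92 for Iltifb (0.212, 0.000309). They ranked 96, 88, 32 and 61 among the genes tested, counted from the highest fold change. Il22 depended most on the recipient: its log2 difference was 1.38 without recipient 1 and 3.20 without recipient 2, with the call kept. In bulk sums of this kind fewer positive cells and less RNA per cell cannot be told apart, and the counts per cell were therefore set beside them.

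The donors differed in the share of high cells. Il17a reached 10 UMIs in 7.61%, 10.1% and 0.980% of CD45.1 cells and in 27.01%, 22.2% and 6.36% of CD45.2 cells. Among those high cells the median was 64.5, 30 and 35 UMIs in CD45.1 and 50, 41 and 24 UMIs in CD45.2 cells, higher in CD45.1 cells in 2 of the 3 recipients, on 56, 86 and 1 CD45.1 cells. For Il22 the high cells were 0.408%, 2.82% and 0.980% of CD45.1 and 6.26%, 7.12% and 1.55% of CD45.2 cells, with medians of 20, 34 and 28 UMIs, from 3, 24 and 1 cells, against 28, 31 and 25. For Il17f they were 0.815%, 1.41% and 0% against 3.94%, 3.78% and 1.09%. The share of cells with any Il17a UMI was 29.1%, 31.4% and 4.90% in CD45.1 and 48.7%, 46.4% and 17.4% in CD45.2 cells, a mean log2 odds ratio of 1.34 ± 0.505 (SD, n = 3). At 10 UMIs the mean log2 odds ratio was 1.90 ± 0.488. Odds were higher in CD45.2 cells in 3 of 3 recipients for each gene at 1 UMI, and a two-sided exact permutation test by sign flips gave p = 0.25, the smallest that 3 recipients allow. The CD45.1 Il17a shares of recipients 1 and 2 lie close to the naive-marked level (27.2% and 25.0%). The contrast at 1 UMI is therefore not read as a difference in expression. Among naive-marked cells the mean share over recipients was also higher in CD45.2 cells. It was 17.8% against 14.8% for Il17a and 3.71% against 1.17% for Il17f. For Il22 it was 11.6% against 7.15%, and for Iltifb 9.87% against 1.31%. CD45.1 cells were slightly deeper (medians of 6350.5 against 5869 UMIs in recipient 1, 6276 against 5706 in recipient 2 and 6491 against 5790 in recipient 4). With cells thinned to 3000 UMIs, and those with fewer left out, the mean log2 odds ratios were 1.44 for Il17a, 1.42 for Il17f, 1.61 for Il22 and 1.91 for Iltifb.

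**Figure D3:**
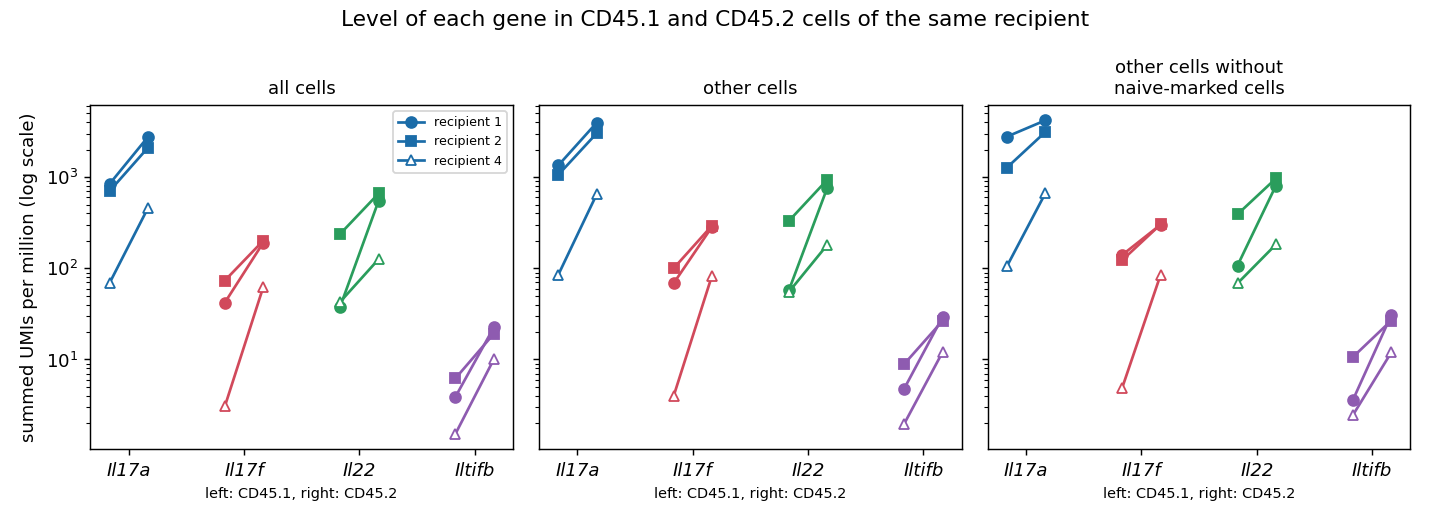
Summed CPM (y axis, log scale) of each gene in CD45.1 (left end of each line) and CD45.2 cells (right end) of recipients 1, 2 and 4, in all cells, other cells, and other cells without naive-marked cells. Every line rises from CD45.1 to CD45.2, from 842.2 to 2768 for Il17a among all cells of recipient 1.

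The donors differed in cell makeup. The Foxp3 class was 8.29%, 7.17% and 5.88% of CD45.1 cells but 18.3%, 21.1% and 23.3% of CD45.2 cells of recipients 1, 2 and 4. The Ccl5 class was 23.1%, 28.1% and 10.8% of CD45.1 cells but 12.3%, 13.1% and 5.97% of CD45.2 cells. Naive-marked cells were 32.9%, 12.6% and 16.7% of CD45.1 cells but 4.32%, 2.57% and 1.71% of CD45.2 cells. All 6 naive markers, among them Ccr7, Lef1, S1pr1, Klf2 and Tcf7, were higher in CD45.1 cells in each recipient, at a summed level of 1763, 853.1 and 1451 CPM against 485.4, 442.7 and 560.2, and none was at 0. The 8 B and plasma cell markers summed to 50.1, 2422 and 9.18 CPM in CD45.1 and 190.4, 915.1 and 19.7 in CD45.2 cells, with up to 6 of them at 0. The 8 markers of innate lymphoid cells of type 3 summed to 227.0, 299.1 and 346.0 against 545.6, 487.2 and 533.5, with 5 higher in CD45.2 cells in each recipient and the defining Ncr1 at 0 in 5 of the 6 sums. Their part in the donor difference was not tested. The contrast was therefore repeated within other cells, and again without naive-marked cells. In other cells Il17a stood at 1344, 1060 and 84.5 CPM in CD45.1 and 3957, 3030 and 648.0 in CD45.2 cells. All 4 members rose, beside 4.31% of 10020 genes (4.26% fell), by 1.65 for Il17a (SE 0.191, edgeR adjusted p = 0.000898), 1.76 for Il17f (0.177, 0.000501), 2.23 for Il22 (0.343, 0.00420) and 1.90 for Iltifb (0.236, 0.00136) on the log2 scale. Without recipient 1 the Il22 difference in other cells was 1.44, and without recipient 2 it was 3.03.

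Without naive-marked cells, an alternative added after seeing the data, all 4 still rose, beside 2.48% of 9942 genes. Il17a was at 2784, 1273 and 105.1 CPM in CD45.1 against 4204, 3131 and 664.9 in CD45.2 cells, a log2 difference of 1.10 (SE 0.173, edgeR adjusted p = 0.00114). The log2 difference was 1.23 for Il17f (0.138, 7.20e-05), 1.82 for Il22 (0.208, 8.76e-05) and 1.78 for Iltifb (0.274, 0.00101). The Il17a and Il17f differences were thus smaller than in all other cells, and those of Il22 and Iltifb moved less.

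Within the Foxp3, Ccl5 and Cxcr5 classes only recipients 1 and 2 had at least 20 cells of both donors, which leaves 1 residual degree of freedom in a fit per class. The p-values of those fits lean on the spread of all genes together, and values per recipient carry the comparison here. In the Foxp3 class Il17a was at 81.2 and 459.9 CPM in CD45.1 and 1007 and 523.8 in CD45.2 cells, so that the donors were far apart in recipient 1 and close in recipient 2. Il22 was at 7.38 and 22.7 against 152.7 and 151.1, from 3 and 9 UMIs on the CD45.1 side. In the Ccl5 class Il17a was at 100.9 and 115.4 against 984.1 and 1226, the most even gap of the 3 classes. There Il17f was at 1.76 and 1.82 against 56.6 and 110.8, Il22 at 9.65 and 123.3 against 262.7 and 348.1, and Iltifb at 0 and 0 against 5.57 and 7.67, with 40 and 55 Iltifb UMIs in CD45.2 cells. In the Cxcr5 class Il17a was at 35.7 and 131.0 against 789.9 and 528.1. Il17f went the other way in recipient 2, at 434.6 against 111.9, on 73 UMIs from 2 of 23 CD45.1 cells, and in the usual way in recipient 1, at 2.55 against 36.4. CD45.1 numbers were small, with 61 and 61 Foxp3, 170 and 239 Ccl5 and 46 and 23 Cxcr5 cells.

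In the fit per class, 10 of the 12 member differences passed, 9 of them higher in CD45.2 cells, beside 2.37%, 9.88% and 0.905% of genes called in either direction in the Foxp3, Ccl5 and Cxcr5 classes. A joint fit of donor and class over all sums, added after seeing the data, had 4 residual degrees of freedom and called 4 of 12, all in the Ccl5 class. Of 10626 genes it called 3.19% there, 0.659% in the Foxp3 and 0.169% in the Cxcr5 class. The edgeR adjusted p in that fit was 0.000248 for Il17a, 0.000143 for Il17f, 0.0145 for Il22 and 0.00645 for Iltifb in the Ccl5 class. In the Foxp3 class the smallest adjusted p was 0.157 (Il22), and in the Cxcr5 class 0.0539 (Il17a). The test of the difference itself found none: no member's donor difference in a class differed from that in other cells (smallest edgeR adjusted p = 0.231, Il17f in the Ccl5 class), beside 0.0659%, 0.0188% and 0% of all genes in the Foxp3, Ccl5 and Cxcr5 classes. At an unadjusted p under 0.05, 5 of these 12 differences passed: Il17a, Il17f and Iltifb in the Ccl5 class and Il17a and Il17f in the Cxcr5 class. Of all 10626 genes, 562, 577 and 596 passed at that threshold in the Foxp3, Ccl5 and Cxcr5 classes. For the members, no difference between classes in the donor contrast was thus called after adjustment. The part of the small cell numbers in this was not tested.

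Co-expression was nested. Of cells with Il17f, 91.5%, 88.8% and 75% also held Il17a in recipients 1, 2 and 4, whereas 22.8%, 22.1% and 27.2% of cells with Il17a held Il17f. The Il17a share among cells without Il17f was 41.3%, 39.7% and 12.7%, which gives odds ratios of 15.2, 12.0 and 20.3. Il22 was less tied to Il17a. Of cells with Il22, 71.2%, 62.4% and 39.3% held Il17a, against 41.0%, 40.5% and 14.9% of cells without Il22, with odds ratios of 3.56, 2.43 and 3.73. Il17f was found in 25.9%, 22.9% and 22.5% of Il22 cells and in 8.13%, 8.07% and 4.83% of the rest. Cells of one library share depth and free RNA, so these are descriptions with no test.

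Of the 5014, 5014 and 304 cells with any of Il17a, Il17f and Il22, about the same share in each recipient held Il17a alone (50.0%, 48.8% and 49.7%). All 3 together were found in 9.45%, 8.54% and 5.59%. Il17a with Il22 and no Il17f made up 17.7%, 16.1% and 5.92%, and Il22 alone 10.6%, 14.4% and 16.8%. Il17f alone was rare in recipients 1 and 2 (1.46% and 1.81%) and reached 5.92% in recipient 4. Il17f with Il22 but no Il17a was the least frequent combination, at 0.399%, 0.519% and 0.987%. At 10 UMIs or more of each gene, Il17a alone made up 68.9%, 62.1% and 67.0% of the 2527, 2227 and 103 cells with any, and all 3 together 3.48%, 4.76% and 1.94%. Il17a with Il22 was then 12.1%, 11.9% and 5.83%, and Il22 alone 5.58%, 11.1% and 13.6%.

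**Figure D4:**
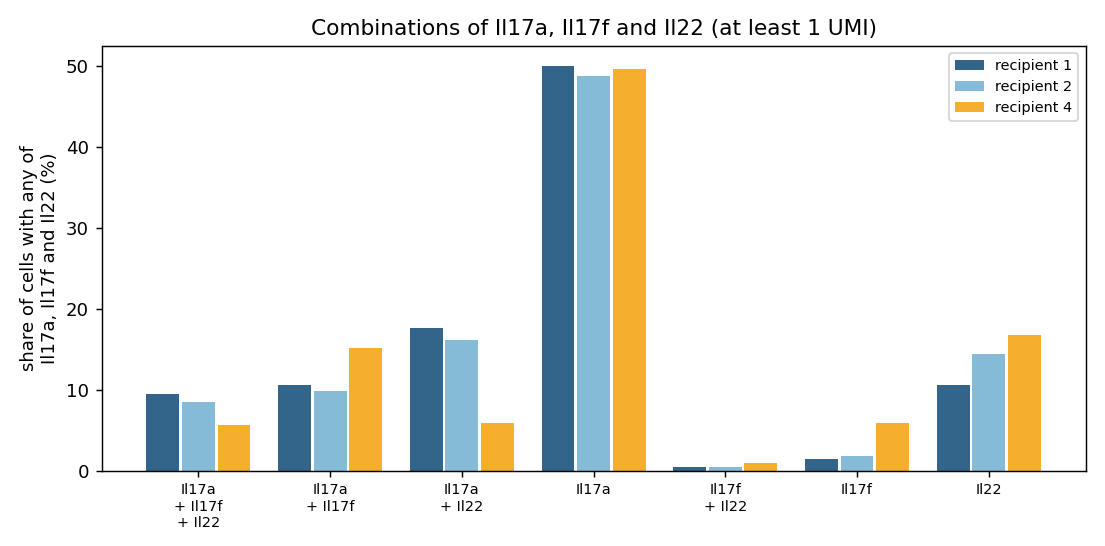
Share of cells with any of Il17a, Il17f and Il22 (y axis, percent) that held each combination at 1 UMI or more, with 1 bar per recipient. Il17a alone is the largest category in each recipient (50.0%, 48.8% and 49.7%), and Il17f with Il22 but no Il17a the smallest.

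Requiring 10 UMIs of both genes raised the odds ratios, while the shares themselves rose in some recipients and fell in others. Of cells with at least 10 Il17f UMIs, 96.2%, 93.4% and 71.4% had at least 10 of Il17a, with odds ratios of 82.0, 60.8 and 41.0. Of cells with at least 10 Il22 UMIs, 73.4%, 59.6% and 36.4% had at least 10 of Il17a (odds ratios 9.42, 6.53 and 9.96). After thinning cells to 3000 UMIs, with those that held fewer left out, the odds ratios at 1 UMI were 24.1, 15.7 and 21.4 for Il17a with Il17f. For Il17a with Il22 they were 4.33, 2.99 and 3.76. Counts rose together as well: the share of cells with Il17f climbed from 1.89%, 2.31% and 1.78% of cells without Il17a to 42.7%, 50.1% and 61.1% of cells with more than 50 Il17a UMIs, the last from 18 cells. Cells with more than 50 Il17a UMIs held Il22 in 47.9%, 50.9% and 44.4%.

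Most high Il17a cells held the defining CD4 T cell markers. Of cells with at least 10 Il17a UMIs (2373, 1958 and 85), 99.1%, 97.6% and 96.5% held Trac, the constant segment of the alpha-beta receptor, and 92.2%, 92.9% and 92.9% held Cd4. Trdc, the constant segment of the delta chain, was found in 0.379%, 1.02% and 0%, below its share among all cells (0.817%, 1.53% and 1.13%). The other gamma-delta markers did not move as one. Tcrg-C1, a constant segment of the gamma chain, was found in 48.0%, 56.9% and 63.5% of high Il17a cells against 24.5%, 31.6% and 28.7% of all cells, and Tcrg-C2 in 21.7%, 22.2% and 41.2% against 17.6%, 19.9% and 21.2%. Tcrg-C4 was found in 1.05%, 2.09% and 0% against 3.24%, 3.66% and 5.30%, and Trdv4 in none of the high cells. The part of gamma-delta T cells in the Il17a counts was not tested. Of the innate lymphoid markers, Ncr1 was detected in none of these cells, while Kit, the stem cell factor receptor, was found in 35.2%, 26.05% and 38.8%, against 12.4%, 9.43% and 11.2% of all cells.

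Iltifb was found more often, and at a higher mean, in cells with more Il22. Of cells with Iltifb, 63.7%, 67.1% and 34.6% held Il22, against 17.3%, 18.4% and 5.21% of cells without it (odds ratios 8.38, 9.04 and 9.69). The share of cells with Iltifb climbed with the Il22 count, from 3.21%, 2.66% and 2.56% of cells with no Il22 to 36.2%, 39.6% and 40.0% of cells with more than 50 Il22 UMIs (149, 197 and 5 cells). The mean rose from 0.0499, 0.0427 and 0.0339 to 0.785, 0.863 and 0.600 Iltifb UMIs per cell. Per 100 Il22 UMIs this is 18.8, 13.3 and 27.03 Iltifb UMIs in cells with 1 Il22 UMI and 0.680, 0.752 and 0.613 in cells with more than 50. Part of that fall is set by construction, since the cells are grouped by the denominator, and in recipient 4 the top 3 groups hold 11, 15 and 5 cells. Over all cells the ratio was 4.18, 2.84 and 7.89, and in Cxcr5 cells it was 10.2, 6.36 and 100, the last from 17 UMIs of each gene.

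**Figure D5:**
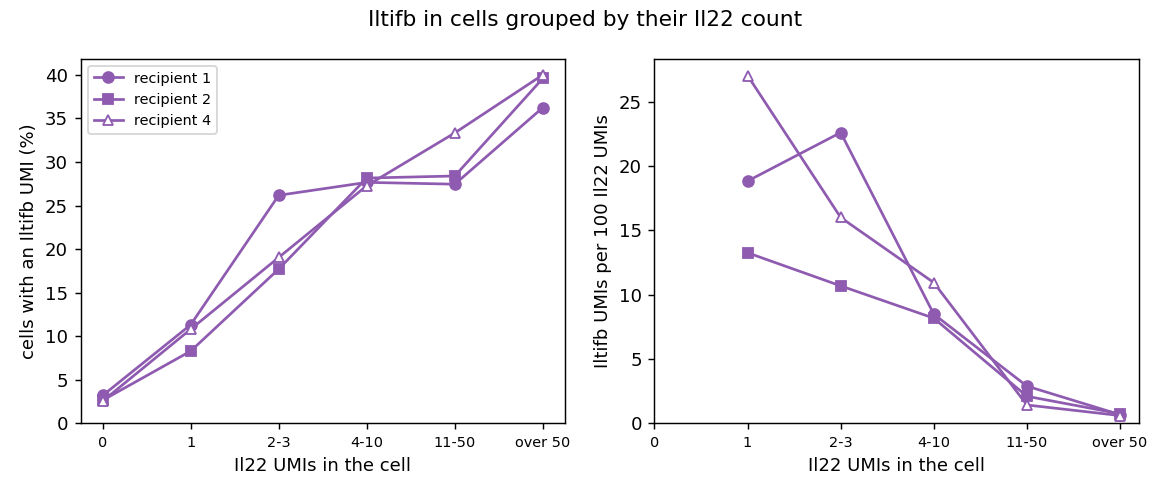
Share of cells with an Iltifb UMI (left, percent) and Iltifb UMIs per 100 Il22 UMIs (right) in cells grouped by their Il22 count (x axis), 1 line per recipient. The share climbs to between 36.2% and 40.0%, while the ratio falls below 1; the top group of recipient 4 holds 5 cells.

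To find genes with a like pattern, the phi coefficient of detection was computed in other cells thinned to 3000 UMIs (5276, 5248 and 794 cells) for 7936 genes, and genes were ranked by their lowest value over the 3 recipients. For Il17a the 5 highest beside the members were Zeb2 (lowest phi 0.287), Ccr1 (0.281), Rbm24 (0.278), Capg (0.269) and Sdc4 (0.264), all below Il17f (0.347). Zeb2 is a zinc finger repressor, Ccr1 a chemokine receptor, Rbm24 an RNA-binding protein, Capg an actin-capping protein and Sdc4 a syndecan. For Il17f they were Rbm24 (0.233), Neb (0.199), Sdc4 (0.192), Gzma (0.186) and Zeb2 (0.182), so that 3 of 5 were shared with Il17a. For Il22 the values were lower, with Ifng (0.141), Il1r1 (0.119), Rbm24 (0.119), Ablim3 (0.113) and Srgap3 (0.112), and Il17a at 0.124. For Iltifb the highest was its copy Il22 (lowest phi 0.0895, with 0.232 and 0.231 in recipients 1 and 2), and no gene beside the members exceeded 0.0838 (Furin), which in counts this sparse is not a finding.

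The genes that surround the cytokines in their pathway were counted from lists in the same fit of donors over all cells. These lists were chosen with earlier results of these data known, so the counts are not independent of the data. The shares over all genes belong beside every list count below. Of 10694 genes tested in all cells, 6.7% rose and 6.16% fell in CD45.2 cells. Of 10020 genes tested in other cells, 4.31% rose and 4.26% fell. Of 13 transcription factors of IL-17 and IL-22 expression, 8 rose in CD45.2 cells and none fell, with a median log2 difference of 0.50 against -0.0015 over all genes. Maf, which drives IL-10 and supports type 17 cells, rose by 0.86 (SE 0.0685, edgeR adjusted p = 5.82e-05), the AP-1 subunit Jun by 0.73 (0.0934, 0.000622) and Runx1, a Runt domain factor, by 0.57 (0.0804, 0.00110). In other cells 4 of 13 rose, among them Maf (0.79), Jun (0.71) and Runx1 (0.51).

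A list of receptors that induce these cytokines, which also held the chemokine receptor Ccr6, had 11 genes, of which 5 rose and 3 fell. Il1r1, the IL-1 receptor, rose by 1.36 (SE 0.127, edgeR adjusted p = 0.000123), Il23r by 1.13 (0.161, 0.00116) and the chemokine receptor Ccr6 by 1.10 (0.161, 0.00132), while Il6ra, the IL-6 receptor, fell by 1.52 (0.195, 0.000621). Il6ra went from 62.5, 17.2 and 45.9 to 17.4, 9.78 and 20.2 CPM, along with the naive markers above; their part was not tested. In other cells 4 rose and 3 fell, among them Il1r1 (1.36), Ccr6 (0.99), Il6ra (-1.95) and Il6st (-0.81), the signalling chain shared by IL-6 receptors.

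Among 8 receptor chains for IL-17 and IL-22, 6 were tested, 1 rose and 1 fell. Il17re, a chain of the IL-17C receptor, rose by 1.35 (SE 0.194, edgeR adjusted p = 0.00122), and Il17ra, the common chain, fell by 0.57 (0.104, 0.00481). Il22ra1, the chain through which epithelium senses IL-22, had 0 UMIs in both donors in all 3 recipients. In other cells 5 chains were tested, and again Il17re rose (1.30) and Il17ra fell (-0.70). Of the 8 further ligands of both families only Il10 was tested, and it rose by 1.63 (0.128, 5.47e-05), from 87.9, 108.1 and 3.06 to 314.7, 319.0 and 46.5 CPM.

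Of 11 other cytokines and chemokines of type 17 cells, 5 rose and none fell. Cxcl3, a neutrophil chemokine, rose by 2.98 (SE 0.245, edgeR adjusted p = 6.82e-05) at a low level (1.85, 1.83 and 0 against 17.8, 14.1 and 0.666 CPM). Tnfsf8, the CD30 ligand, rose by 0.80 (0.0747, 0.000126), Tnf by 0.73 (0.128, 0.00378) and Ifng by 0.79 (0.193, 0.0235). In other cells 3 rose, Cxcl3 (2.95), Tnfsf8 (0.75) and Tnf (0.86). Among 10 repressors of IL-17 expression 9 were tested, 2 rose and 2 fell. Foxp3 rose by 1.43 (0.143, 0.000180). The Foxp3 class was also a larger share of CD45.2 than of CD45.1 cells, and its part in that rise was not tested. Nr1d1, a nuclear receptor of the circadian clock, rose by 1.40 (0.203, 0.00125). Socs3, an inhibitor of STAT3 signalling, fell by 0.55 (0.0802, 0.00124) and Ikzf1 by 0.51 (0.0775, 0.00162).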

How the data were processed

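The authors deposited 1 matrix of UMI counts per recipient, made with Cell Ranger 6.1.1 on mm10 per the submitters' processing notes, with counts of the CD45.1 and CD45.2 antibody tags in the same files. The counts are whole numbers, not normalized. How reads matching both Il22 and Iltifb were treated is not stated there. Barcodes with at least 500 genes and at most 10% mitochondrial counts were kept. No doublet caller was run, and an alternative drops cells above 3 times the median depth.

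Counts were summed per recipient and donor or class and tested with edgeR 4.0.16 (R 4.3.3), a quasi-likelihood test with TMM scaling, low counts filtered out, a block term per recipient, and p-values adjusted by Benjamini-Hochberg over all genes tested, at a false discovery rate of 0.05. DESeq2 1.42.0 was an alternative. Both donors' cells of a recipient came from the same animal. Their deviations from the donor means correlated at 0.308, 0.608 and 0.518 in recipients 1, 2 and 4, each the highest for its recipient, over 8132 genes with at least 5 UMIs in each sum. Cells were thinned to 3000 UMIs where depth mattered. Thinned shares and odds ratios leave out the 785, 658 and 198 kept cells of recipients 1, 2 and 4 that were too shallow. Odds ratios of donors used a pseudocount of 0.5. On simulated data for the donor contrast in all cells, 46 of 100 genes changed 2-fold and 100 of 100 changed 4-fold were recovered, with 7 false calls among 10820 genes. The simulation used pooled gene means, the same spread for every gene and no difference between recipients. Changed genes were drawn from those expected at 5 UMIs or more in the smallest sum. It therefore does not show how the test performs for genes that vary between recipients, as the members did. Python 3.11.15 with scipy 1.17.1 gave the intervals and exact tests.

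All 4 members were named. Of each pathway list every gene was counted, and up to 4 with the smallest adjusted p were named. The 5 genes most like each member were named by their lowest phi coefficient over the recipients, among genes detected in 2% to 98% of cells. The members and lists were chosen with earlier results of these data known. Recipient 3 was left out of the main comparisons. Values of some listed genes are not reported here.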

Additional observations from a re-analysis of the deposited data

Results flagged for a closer look

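Recipient 3, which the comparisons leave out, held the cytokine transcripts in most of its cells. A UMI was found in 96.9% of its cells for Il17a, 68.7% for Il17f, 90.1% for Il22 and 17.7% for Iltifb, where the highest share among the other recipients was 47.2%, 11.8%, 21.4% and 7.01%. These values stand in data outside the main comparisons and above the level of the other recipients. In that library there were 30.3 Il22 UMIs per 100 Il17a UMIs over all cells and 29.7 in its Foxp3 class. The cause was not tested.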

How the results depend on the processing

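Of 88 alternatives to the donor fold changes, 80 kept direction and side of the threshold and 8 kept direction only; of 144 for the classes, 123 did, 17 lost the call, 3 gained one and 1 reversed. The pairing by recipient mattered most. With no replicate block, the donor differences were no longer called at 1.56 (Il17a), 1.55 (Il17f), 1.85 (Il22) and 1.75 (Iltifb) in all cells and 1.43, 1.57, 1.87 and 1.72 in other cells, and the classes lost Il17a (-2.22) and Il22 (-2.26) for Foxp3, Il17f (-1.32) and Il22 (-1.48) for Ccl5, and Il17a (-2.49), Il17f (-1.65) and Il22 (-1.02) for Cxcr5. With recipient 3, the calls of Il17a for Foxp3 (-1.94), of Il17f (-1.09), Il22 (-1.34) and Iltifb (-1.52) for Ccl5 and of Il17f for Cxcr5 (-1.80) were lost. DESeq2 lost Il17f for Ccl5 (-0.36) and Cxcr5 (-2.32). Il17a for Ccl5 was called without the low-count filter (-1.32) and with classes from thinned counts (-1.46), and the latter turned Iltifb for Cxcr5 to -0.16. Leaving out each recipient gave -1.72 to -0.84 for Il17a and -1.93 to -1.11 for Il17f in the Ccl5 class, and -2.82 to -1.17 for Il17f in the Cxcr5 class. The joint fit called 4 of 12 differences within classes instead of 10. The causes were not tested.

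Genes called between donors in all cells numbered 1376, against 422 with no block, 876 with DESeq2, 731 without recipient 2 and 481 with recipient 3. In other cells they numbered 859, against 243 with no block, 1438 with no filter and 545 without naive-marked cells. Class calls were 2569 (Foxp3), 1541 (Ccl5) and 3237 (Cxcr5), with no block 957, 383 and 1636, with recipient 3 689, 176 and 1499, without recipient 1 1371, 396 and 1497, and without recipient 2 962, 573 and 1578. Mean shares moved with the threshold: at 10 UMIs they were 17.6% for Il17a, 2.75% for Il17f, 4.68% for Il22 and 0.0252% for Iltifb, at 3 UMIs 5.34% for Il17f and 0.952% for Iltifb, and at 2 UMIs 2.02% for Iltifb. With recipient 3 they were 24.4% (Il17f), 34.6% (Il22) and 8.67% (Iltifb), and Iltifb was 3.36% after thinning. Il17f in Il22 cells was 14.5% at 10 UMIs, 19.6% thinned and 36.2% with recipient 3. The number of cells limits the CD45.1 side, with 102 cells in recipient 4.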
